A study of Rattus norvegicus with 18 samples.

Results

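The 8 genes described here act in the making of sterols and in its control: *Hmgcs1*, *Idi1*, *Fdps*, *Fdft1*, *Sqle* and *Sc5d* encode enzymes of the pathway, and *Srebf2* and *Insig1* regulate it. They were chosen by name from the 32882 genes listed in each of 3 tables of normalized counts, and each name matched 1 row. None of the 8 is an uptake receptor. Sterol uptake enters only through *Srebf2*, which drives transcription of uptake genes as well as of the enzymes.

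The libraries came from TMBP cells, CD4+ T cells of Lewis rats that recognise myelin basic protein and cause experimental autoimmune encephalomyelitis when transferred, isolated on day 3 after transfer. There were 18 libraries in 6 groups of 3. From the spinal cord parenchyma came cells with a CRISPR knockout of *Ets1* (Ets1 KO, marked with EGFP) and control cells with a non-targeting guide (NT control, marked with BFP). From the spleen came the same 2 kinds of cell, in a separate table, and Grk2 KO cells with their own NT control, in another. Per the methods, all cells were expanded in growth factor and restimulated with their antigen before transfer, edited by electroporation of Cas9 complexes, and KO and control cells were injected together. Parenchymal cells passed through a density gradient, whereas splenic cells passed through red cell lysis and CD4 enrichment, and both were then sorted. Nothing in the labels says which libraries came from which animal, so the p values measure the spread between these libraries.

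Cholesterol is built from acetyl-CoA through mevalonate, isoprenoid units, squalene and a series of sterol intermediates. When sterol in the endoplasmic reticulum is low, the escort protein SCAP carries SREBP2, the product of *Srebf2*, to the Golgi, where proteases release a transcription factor that switches on most genes of the pathway. When sterol is ample, INSIG1 holds the SCAP-SREBP complex back. T cells that are activated and divide are known to raise sterol synthesis for new membrane.

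Each library held between 898092 and 2248258 reads on genes, the shallowest being replicate 3 of the splenic NT control of the Ets1 table, and the mitochondrial genome gave between 14.1% and 27.4% of them. *Grk2* fell in its KO, from 165.8, 166.3 and 141.7 normalized counts in the controls to 53.3, 64.2 and 87.3 (log2 difference -1.22 ± 0.13 SE, limma adjusted p = 1.76e-12). *Ets1* mRNA was not called lower in the libraries labelled Ets1 KO: the log2 difference was 0.09 ± 0.07 SE in the parenchyma and -0.06 ± 0.11 SE in the spleen (limma adjusted p = 0.56 and 0.854). Reads at 3′ ends do not show an edit elsewhere in a transcript, so this level does not check those labels. T cell markers were present in every library, 8 of 8 genes in every group, with sums of 2597 to 3378 CPM (reads per 1000000 reads on genes of the library). Sums of 12 myeloid and microglial markers were 21.3 to 54 CPM in the parenchyma and 0.848 to 15.8 in the spleen, while 6 astrocyte markers summed to at most 4.81, 8 B cell markers to at most 9.89 and the 2 erythroid markers found to at most 0.798. Only *Nefl*, of the 6 neuron markers, reached more than a few CPM in any group, and its values stand beside the splenic Ets1 comparison below. The 8 oligodendrocyte markers summed to between 103.5 and 154.6 CPM in all groups, spleen included. Of these 8, 4 or 5 were at 0 in all 3 libraries of a splenic group, and 1 or 2 in a parenchymal group. In each table only 2 of them were high enough for a test. A lower level in such bulk libraries can mean fewer cells that express a gene or less RNA per cell, and these cannot be told apart.

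The members lie on 6 chromosomes of Rnor_6.0, the build of the tables, and all are protein-coding. *Hmgcs1* is at chr2:52431600-52445055 on the plus strand, *Fdps* at chr2:188392857-188413219 on the minus strand, *Idi1* at chr17:57976267-57984036 on the minus strand and *Fdft1* at chr15:46339248-46367302 on the minus strand. *Sqle* is at chr7:99609190-99624732, *Srebf2* at chr7:123381076-123438603 and *Insig1* at chr4:342301-350515, all on the plus strand, and *Sc5d* at chr8:46525399-46537050 on the minus strand. The library kit read the 3′ end of each transcript, so the read count of a gene depends little on the length of its transcript.

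The upstream sequences of 4 members are given here because *Hmgcs1*, *Idi1* and *Insig1* are the members whose control levels differed most between groups of libraries, whereas *Srebf2*, their activator, differed little. Each is the 200 bases before the annotated start, 5′ to 3′ on the gene's strand, from RefSeq in build GRCr8, with CCAAT on either strand (ATTGG when read on the other) in capitals. CCAAT is the motif of NF-Y, a factor known to act with SREBP at sterol gene promoters. *Insig1* is annotated on the plus strand in Rnor_6.0 and on the minus strand in GRCr8. Sequences were matched to the counted genes by name only.
Hmgcs1 (GRCr8, chr2:53382104-53382303, plus strand): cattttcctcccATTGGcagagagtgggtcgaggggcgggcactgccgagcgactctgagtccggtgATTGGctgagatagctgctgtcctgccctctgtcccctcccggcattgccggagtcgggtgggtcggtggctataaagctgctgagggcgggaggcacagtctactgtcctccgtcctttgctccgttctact
Idi1 (GRCr8, chr17:66547525-66547724, minus strand): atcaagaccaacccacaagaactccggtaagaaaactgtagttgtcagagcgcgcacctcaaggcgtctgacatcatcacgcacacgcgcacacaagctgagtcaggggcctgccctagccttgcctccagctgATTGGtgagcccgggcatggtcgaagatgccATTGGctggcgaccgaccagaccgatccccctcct
Insig1 (GRCr8, chr4:8057770-8057969, minus strand): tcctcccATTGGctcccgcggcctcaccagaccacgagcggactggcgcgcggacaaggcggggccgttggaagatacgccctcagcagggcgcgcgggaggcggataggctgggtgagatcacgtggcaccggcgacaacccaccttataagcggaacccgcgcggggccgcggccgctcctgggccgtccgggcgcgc
Srebf2 (GRCr8, chr7:115543107-115543306, plus strand): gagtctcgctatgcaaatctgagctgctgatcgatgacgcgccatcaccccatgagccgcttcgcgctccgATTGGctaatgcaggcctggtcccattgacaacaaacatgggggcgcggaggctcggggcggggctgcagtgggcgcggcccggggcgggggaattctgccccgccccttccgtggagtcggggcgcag

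A promoter of 300 bases, 250 before the start and 50 after it, was at hand for 6 members, all but *Fdft1* and *Sqle*. All 6 held CCAAT on at least 1 strand, against 37.5% of the 33469 rat promoters of the same length. *Hmgcs1* held it 188 and 133 bases before the start, *Fdps* 130 and 85, *Idi1* 66 and 35, *Insig1* 193, *Srebf2* 129 and *Sc5d* 87. The GC box GGGCGG, which SP1 binds, was in 5 of the 6, all but *Idi1*, and in 33.1% of all promoters, and the E-box CACGTG was in *Insig1* and *Sc5d* and in 6.42% of all. The sterol regulatory element spelled TCACNCCAC was in 0 of the 6 and in 1.12% of all, which says only that these letters are not in these windows. Both strands were searched for each motif, no motif holds another, and a match is a description of the sequence.

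The sterol genes were measured at moderate depth. Outside *Insig1*, a member had between 10 and 586 reads in a library, for which counting alone gives a coefficient of variation of 4.15% to 27.7%. The observed coefficient of variation between the 3 libraries of a group ranged from 2.01% to 47.2%, and in 25 of the 42 combinations of gene and group it was within 1.5 times that of counting. *Insig1* had 0 to 12 reads per library in the parenchyma and in the splenic libraries of the Ets1 table, under the minimum mean of 10 normalized counts for a test, and 8 to 19 in the Grk2 table. In all, 7 of the 8 members were tested in the parenchyma, 7 in the spleen of the Ets1 table and 8 in the Grk2 table.

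**Figure D1:**
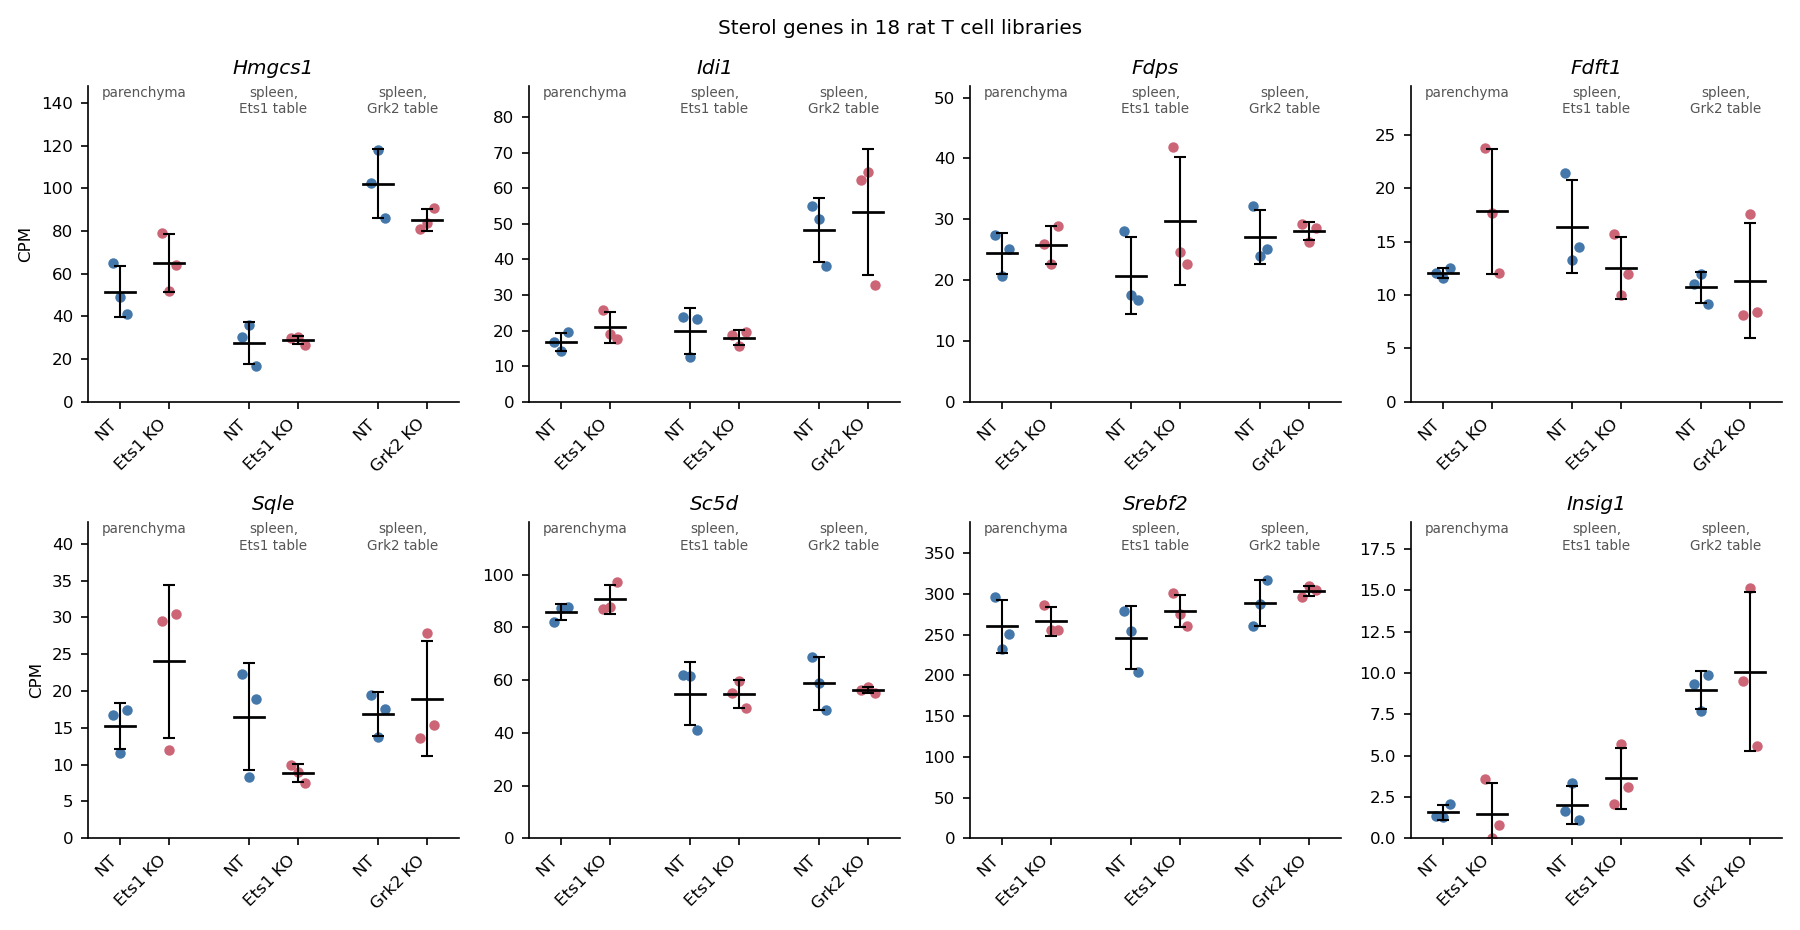
CPM (y axes, from 0) of the 8 sterol genes in each of the 18 libraries, by group. Points are libraries, bars the mean and SD of 3, blue NT control and red KO, and a reader should see that KO and control libraries overlap in every panel and table, and that *Hmgcs1*, *Idi1* and *Insig1* are higher in the Grk2 table than in the other splenic table.

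The first question was whether sterol genes differed between Ets1 KO and control cells that had reached the parenchyma. None of the 7 members tested was called there at an adjusted p under 0.05 with limma (0 of 7), against 5.23% of the 7002 genes tested. At an unadjusted p under 0.05 there were 2, *Sqle* and *Hmgcs1*, against 16.9% of all genes tested. On the same reads edgeR called 0 and had 2 members at an unadjusted p under 0.05, and DESeq2 called 0 and had 0. DESeq2 gave no adjusted p to *Idi1*, *Fdps*, *Fdft1* and *Sqle*, so it could not have called them. All 7 log2 differences were above 0, with a median of 0.29 against -0.03 over all genes, but KO and control ranges overlapped for each of the 7, whereas they did not for 18.4% of all genes tested.

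*Hmgcs1*, the synthase that joins acetyl units into HMG-CoA at the entry of the pathway, was at 90.6, 71.5 and 58 normalized counts in parenchymal controls and at 111.2, 73.8 and 90.7 in the libraries labelled Ets1 KO. The KO library was above the control of the same number in 3 of 3 pairs, but the groups overlapped, since replicate 2 of the KO lay below the highest control. The log2 difference was 0.32 ± 0.16 SE (95% interval 0.01 to 0.64, limma adjusted p = 0.262).

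*Sqle*, squalene epoxidase, catalyses the first step that consumes oxygen and is one of the rate-limiting steps of the pathway. Its normalized counts were 23.4, 16.9 and 24.6 in the controls and 41.5, 17.2 and 43.1 in the libraries labelled Ets1 KO. Replicates 1 and 3 of the KO were above all controls and replicate 2 was level with the lowest. The log2 difference was 0.54 ± 0.27 SE (95% interval 0.01 to 1.06, limma adjusted p = 0.275).

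*Fdft1*, squalene synthase, which commits farnesyl units to sterols, was at 16.8, 16.9 and 17.7 normalized counts in the controls and at 33.4, 25.3 and 17 in the libraries labelled Ets1 KO. Its controls were within 1 count of each other, while the KO libraries spread from 17 to 33.4. The controls had 18 reads each, and their coefficient of variation in CPM of 3.67% was below the 23.6% of counting alone. In the KO libraries it was 32.9%, against 20.3% from counting. The log2 difference was 0.48 ± 0.30 SE (limma adjusted p = 0.418). *Idi1*, which interconverts the isoprenoid building blocks, differed by 0.29 ± 0.26 SE (adjusted p = 0.635). *Fdps*, which makes farnesyl diphosphate, differed by 0.08 ± 0.23 SE (adjusted p = 0.92).

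*Sc5d*, the desaturase near the end of the pathway, and *Srebf2* were the members measured with most precision, and their differences in the parenchyma were small. *Sc5d* differed by 0.07 ± 0.13 SE, with a 95% interval of -0.19 to 0.33. *Srebf2* was at 413.8, 338.5 and 354.8 normalized counts in the controls and 402.3, 364.9 and 361.6 in the libraries labelled Ets1 KO. Its difference was 0.03 ± 0.09 SE, with a 95% interval of -0.15 to 0.22. *Insig1* was at 2, 2 and 3 reads in the controls and 5, 0 and 1 in the KO, too few to compare.

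The wider pathway lists, of which 6 members belong to sterol synthesis and 2 to SREBP control, gave few calls in the parenchyma. Of 21 genes listed for sterol synthesis 15 were tested and 0 were called with limma. An unadjusted p under 0.05 was found for 3, among them *Sqle* and *Hmgcs1*, against 16.9% of all genes tested. The 15 log2 differences include the 6 members given above. Of the 15, 13 were above 0, with a median of 0.29 against -0.03 over all genes. *Cyp51*, the lanosterol demethylase, differed by 0.21 ± 0.16 SE (adjusted p = 0.566). *Srebf1*, whose product serves mainly fatty acid genes, was at 10 ± 2.54 and 17.6 ± 2.76 CPM with no overlap between KO and controls, and its log2 difference of 0.78 ± 0.31 SE missed the threshold (adjusted p = 0.132).

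The only gene of the 7 pathway lists called in any comparison was *Rnf139* in the parenchyma, and it fell. *Rnf139* encodes a ubiquitin ligase of the endoplasmic reticulum, also named TRC8, with a sterol-sensing domain. It was at 45.9 ± 8.74 CPM in the controls and 26.4 ± 8.47 in the libraries labelled Ets1 KO (SD, n = 3 each), lower in 3 of 3 pairs and without overlap, a log2 difference of -0.82 ± 0.20 SE (limma adjusted p = 0.00191). The call was lost without replicate 1 (-0.67) and when the variance was not fitted as a trend on expression. DESeq2 gave *Rnf139* a log2 difference of -0.80 and no adjusted p, so it could not have called the gene. In the spleen *Rnf139* differed by -0.21 ± 0.21 SE under Ets1 KO and by -0.18 ± 0.15 SE under Grk2 KO (adjusted p = 0.721 and 0.756).

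Of 12 proliferation genes 7 were tested in the same comparison and 2 fell, *Mki67* (log2 difference -1.15 ± 0.13 SE) and *Top2a* (-1.16 ± 0.13 SE, limma adjusted p = 1.01e-15 and 7.64e-16). The summed level of the 12 was 402.2 to 548.4 CPM in the controls and 259.9 to 317.3 in the KO. The myeloid and microglial markers summed to 21.3 to 41 and 35.4 to 54 CPM in the same groups, with 1 and 2 of the 12 genes at 0 in all 3 libraries. The part of either in the sterol values was not tested.

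In the spleen the same comparison gave 0 of 7 members called with limma, against 2.22% of 6979 genes tested. At an unadjusted p under 0.05 there were 0 with limma, against 14.1% of all genes tested, 1 with edgeR and 0 with DESeq2. EdgeR and DESeq2 called 0. DESeq2 gave no adjusted p to *Hmgcs1*, *Idi1*, *Fdps*, *Fdft1*, *Sqle* and *Sc5d*, so it could not have called them. The 7 log2 differences divided into 4 above 0 and 3 below, with a median of 0.01 against 0.00 over all genes, and again no member was without overlap, as 16.9% of genes were.

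*Sqle* had the largest difference among the members in the spleen and its sign was opposite to that in the parenchyma. It was at 29.5, 10.8 and 26.6 normalized counts in the controls and 13, 11.8 and 10.6 in the libraries labelled Ets1 KO. The KO libraries lay close together near the lowest control, and pairs 1 and 3 were lower while pair 2 was near level. The log2 difference was -0.75 ± 0.37 SE (95% interval -1.51 to 0.01, limma adjusted p = 0.359).

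*Fdps* and *Fdft1* each had differences of 1 sign in all 3 splenic pairs and did not pass the test. *Fdps* was at 37.2, 22.6 and 23.5 normalized counts in the controls and 54.8, 32.3 and 31.9 in the KO, a log2 difference of 0.49 ± 0.25 SE (limma adjusted p = 0.381). Its pair differences, 0.55, 0.50 and 0.42, were alike although the groups overlapped. *Fdft1* was at 28.4, 17.2 and 20.4 in the controls and 20.5, 13 and 16.9 in the KO, a difference of -0.36 ± 0.32 SE (adjusted p = 0.663).

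The remaining members had smaller differences in the spleen. *Srebf2* differed by 0.19 ± 0.12 SE, higher in 3 of 3 pairs (adjusted p = 0.493), *Hmgcs1* by 0.13 ± 0.24 SE, *Idi1* by -0.09 ± 0.28 SE and *Sc5d* by 0.01 ± 0.18 SE. For *Sc5d* the 95% interval of -0.35 to 0.38 bounds the change. The signs of *Hmgcs1* and *Sc5d* turned without replicate 3 (-0.13 and -0.11), the pair that holds the shallowest control library, and that of *Idi1* turned without replicate 1 (0.04). *Cyp51* and *Srebf1* differed by 0.03 and 0.53 on the log2 scale, with 0 of the 15 sterol synthesis genes tested called by limma and 0 at an unadjusted p under 0.05. *Insig1* was at 2, 4 and 1 reads in the controls and 4, 12 and 7 in the KO, too few for a test. All KO libraries of this table were deeper, at 1909862 to 2248258 reads on genes against 898092 to 1213485 in the controls. In CPM *Insig1* was at 1.65, 3.33 and 1.11 in the controls and 2.09, 5.69 and 3.11 in the KO, with overlap. The part of depth in the splenic Ets1 comparison was not tested.

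Most genes of cell division fell in the splenic libraries labelled Ets1 KO. Of 12 proliferation genes, all tested, 8 were called lower and 0 higher, among them *Mki67* (-0.67 ± 0.11 SE, limma adjusted p = 0.00208) and *Top2a* (-0.63 ± 0.11 SE, adjusted p = 0.00328). Without replicate 1 both calls were lost (-0.60 and -0.58), and 3 genes in all were called. The summed level of the 12 was 3854 to 4284 CPM in the controls and 2565 to 2821 in the KO. The neuron markers summed to 15.8 to 36.3 and 53.4 to 84.5 CPM, nearly all of it *Nefl*, a neurofilament gene (log2 difference 1.31 ± 0.23 SE, adjusted p = 0.00328), with 5 and 3 of the 6 genes at 0 in all 3 libraries of a group. The part of either in the sterol values was not tested.

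The last of the KO comparisons asked the same of *Grk2*, a kinase of G protein-coupled receptors, and none of the sterol genes was called. Limma called 0 of 8 members, against 1.56% of 6985 genes tested. At an unadjusted p under 0.05 there was 1 member, against 10.4% of all genes tested. EdgeR called 0 with 1 at an unadjusted p under 0.05, and DESeq2 called 0 with 0. The log2 differences spanned only -0.26 to 0.10, with a median of 0.06 against 0.02 over all genes, and no member was without overlap, as 12.2% of genes were.

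*Hmgcs1* was the member furthest from 0. Its normalized counts were 131.2, 153 and 114.3 in the controls and 103.9, 108.7 and 118.2 in the Grk2 KO, lower in pairs 1 and 2 and level in pair 3. The log2 difference was -0.26 ± 0.12 SE (95% interval -0.50 to -0.01, limma adjusted p = 0.441).

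*Srebf2*, at 332.8, 372.5 and 422 normalized counts in the controls and 381.6, 401.8 and 396.6 in the KO, differed by 0.07 ± 0.08 SE, the smallest error of any member. *Idi1*, *Fdft1*, *Sqle* and *Insig1* spread more widely among the KO libraries than among the controls, and *Hmgcs1*, *Fdps*, *Srebf2* and *Sc5d* less widely. *Idi1* was at 70.5, 66.5 and 50.6 normalized counts in the controls and 80.3, 83.9 and 42.8 in the KO (0.09 ± 0.16 SE). *Sqle* was at 24.9, 17.7 and 23.3 against 17.5, 36.2 and 20 (0.10 ± 0.28 SE). *Insig1*, tested here only, was at 11.9, 9.98 and 13.1 against 12.2, 19.7 and 7.28 (0.06 ± 0.36 SE, adjusted p = 0.985). Without replicate 2 these differences were -0.03, -0.35 and -0.37. The values of *Fdps*, *Fdft1* and *Sc5d* were 0.05, 0.00 and -0.05, and those of *Cyp51* and *Srebf1* were -0.24 and 0.05. *Top2a* rose in this comparison (0.36 ± 0.07 SE, adjusted p = 0.000222), 1 of 2 proliferation genes called higher of 12 tested, a call lost without replicate 2 (0.28), with DESeq2 and with no replicate block. The summed level of the 12 was 1816 to 2619 CPM in the controls and 2233 to 2838 in the KO, and its part in the sterol values was not tested.

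**Figure D2:**
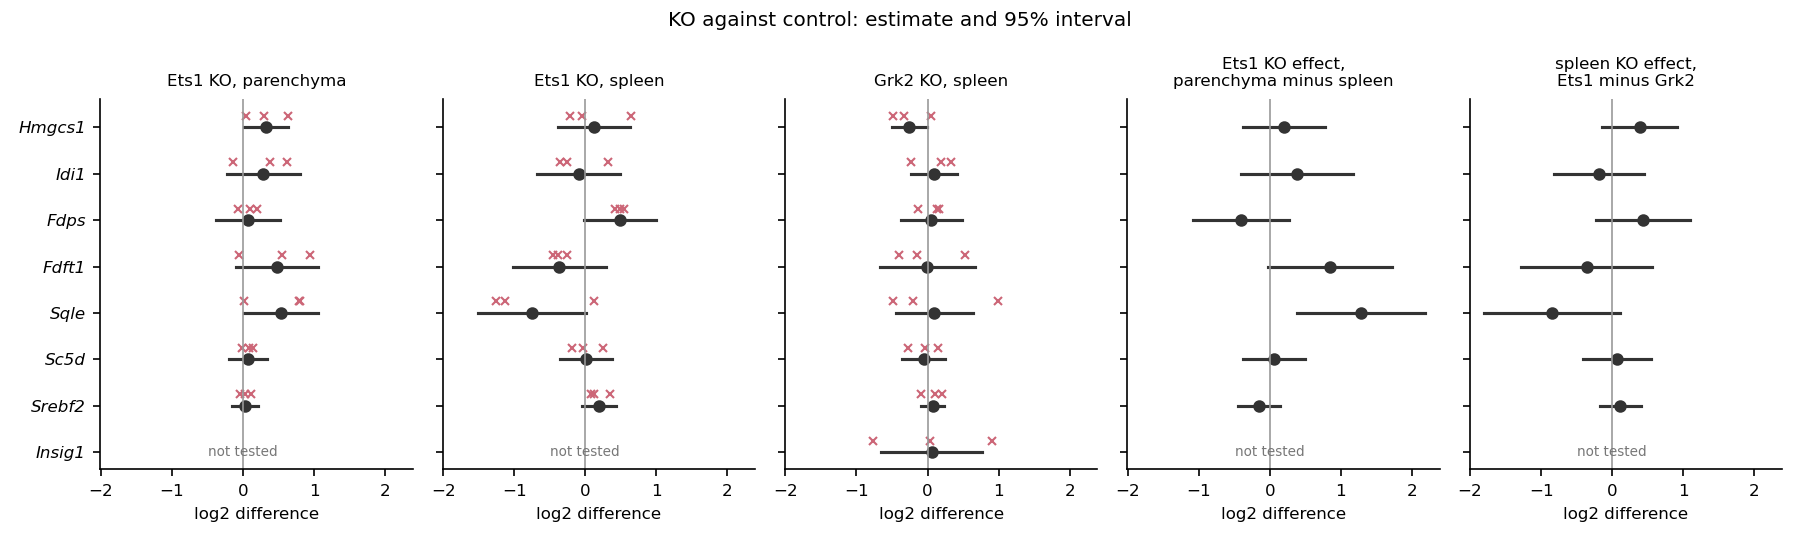
Log2 difference between KO and control (x axes) for each sterol gene in the 3 comparisons and in the 2 differences between comparisons. Dots are limma estimates, lines 95% intervals and red crosses the 3 single pairs; the interval of *Sqle* for parenchyma minus spleen, 0.38 to 2.19, is the one furthest from 0, and genes marked as not tested were under the minimum.

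Whether a knockout acted differently in the 2 tissues was tested on the log2 ratios of the pairs, 3 against 3. For Ets1 KO, parenchyma minus spleen, limma called 0 of 7 members against 2.10% of 6520 genes. At an unadjusted p under 0.05 there was 1 member, against 13.8% of all genes tested. That member was *Sqle*, whose ratios were 0.80, 0.02 and 0.79 in the parenchyma and -1.12, 0.12 and -1.25 in the spleen, so that pairs 1 and 3 went opposite ways in the 2 tissues and pair 2 was near 0 in both. The difference was 1.29 ± 0.45 SE (95% interval 0.38 to 2.19, limma adjusted p = 0.127). Without replicate 2 of each group it was 1.98 and passed the threshold (adjusted p = 0.0479). Without replicate 1 or replicate 3 it did not pass, and the lowest of the 3 leave-one-out values was 0.91. *Fdft1* differed in the same direction by 0.84 ± 0.43 SE (adjusted p = 0.376). *Hmgcs1*, *Idi1*, *Fdps*, *Sc5d* and *Srebf2* differed by 0.20, 0.38, -0.41, 0.06 and -0.16, and *Cyp51*, *Srebf1* and *Gpr183* by 0.18, 0.25 and 0.05, none called.

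For the 2 knockouts in the spleen, Ets1 minus Grk2, limma called 0 of 7 members against 1.94% of 6490 genes. At an unadjusted p under 0.05 there were 0 members, against 12.9% of all genes tested. *Sqle* had the largest value, -0.85 ± 0.47 SE (adjusted p = 0.451). *Hmgcs1*, *Idi1*, *Fdps*, *Fdft1*, *Sc5d* and *Srebf2* differed by 0.39, -0.19, 0.43, -0.36, 0.07 and 0.12, and *Cyp51*, *Srebf1* and *Gpr183* by 0.26, 0.48 and -0.30, none called. *Insig1* was tested in neither difference. Exact permutation tests of the single members, 3 KO against 3 control libraries in each table, gave p values from 0.2 to 1 in 22 tests, with 0.1 the smallest that 20 labellings allow. Across those 22 values, 4 were higher and 1 lower in all 3 pairs. The share of all genes with 1 sign in all 3 pairs was not taken, so nothing is drawn from these counts.

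The level in control cells was set side by side in CPM, since the 3 tables had been normalized separately by the authors. Tissue, table and isolation protocol change together between the parenchyma and either spleen group and cannot be told apart, so no test was made. The 2 spleen control groups, cells of 1 kind from 1 organ in 2 tables, show how far levels differed between tables within 1 organ.

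*Hmgcs1* fell into 3 separate ranges. Its controls were at 30.5, 35.8 and 16.7 CPM in the spleen of the Ets1 table, at 64.8, 49.1 and 41 in the parenchyma and at 102.6, 118.1 and 86 in the spleen of the Grk2 table. No range overlapped another, and the parenchyma lay between the 2 spleen groups. The share of all genes with 3 separate ranges was not taken, so nothing is drawn from the separation. The mean of the Grk2 table was 3.70 times that of the other spleen group, a larger step than the 1.87 times between parenchyma and the spleen of the Ets1 table.

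*Idi1* was at 23.9, 12.5 and 23.4 CPM in the spleen of the Ets1 table and at 55.1, 51.4 and 38 in that of the Grk2 table, 2.42 times higher and without overlap. The parenchymal controls, at 16.7, 14.2 and 19.5, overlapped the first and not the second. *Insig1* followed the same order, with 7 reads in all in the splenic controls of the Ets1 table, 7 in the parenchyma, at 2, 2 and 3, and 33 in those of the Grk2 table. Its ratio between the spleen groups was 4.27 (95% exact interval 1.85 to 11.4, counting error only).

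*Fdft1* went the other way, from 21.4, 13.3 and 14.5 CPM in the spleen of the Ets1 table to 11, 12 and 9.13 in that of the Grk2 table. *Sqle*, *Fdps*, *Srebf2* and *Sc5d* overlapped between the spleen groups, with ratios of 1.02, 1.31, 1.17 and 1.07. Of the 7 members over a mean of 10 CPM, 2 were higher without overlap in the Grk2 table, where 29.8% of 6661 genes were, and 1 lower, where 31.7% were. Most genes of any kind were thus apart between the 2 spleen groups. The log2 difference of *Hmgcs1* lay above that of 97.5% of the genes and that of *Idi1* above 92%.

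*Cyp51* and *Srebf1* also differed between the 2 groups of splenic controls. *Cyp51* was at 55 ± 3.63 CPM in the Ets1 table and 139.7 ± 8.31 in the Grk2 table (SD, n = 3 each). In the sterol synthesis list 5 of 14 genes were higher in the Grk2 table and 4 lower without overlap, against 29.8% and 31.7% of all genes, so those shares were near the background. In the SREBP control list 5 of 7 were higher and 0 lower, against the same shares of all genes. *Srebf1* was at 6.83 ± 2.02 and 17.7 ± 4.19 CPM. Of the 8 genes for sterol uptake and transport, 3 were lower without overlap, against 31.7% of all genes. *Srebf2* itself overlapped, at 203.8 to 279.4 and 260.4 to 317.3.

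Between parenchyma and spleen, *Sc5d* was the 1 member of 7 above all 6 spleen libraries, where 10.3% of genes were, and 0 members were below all of them, where 15.7% of genes were. *Sc5d* was at 82.2, 87.3 and 87.7 CPM in the parenchyma, at 61.8, 61.6 and 41.2 in one spleen group and at 68.7, 59.1 and 48.7 in the other. The parenchymal libraries lay together above the highest splenic one, and the log2 difference from the 6 was 0.60. The other members lay on either side of 0, with *Idi1* lowest at -0.82 and *Hmgcs1*, *Fdps*, *Fdft1*, *Sqle* and *Srebf2* between -0.11 and 0.05. The median of the 7 was -0.03, against -0.10 over all genes.

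Proliferation genes also differed between these control groups. The 12 summed to 402.2 to 548.4 CPM in the parenchyma, 3854 to 4284 in the spleen of the Ets1 table and 1816 to 2619 in that of the Grk2 table. In the same order of groups, the means of *Hmgcs1* were 51.7, 27.7 and 102.2 CPM. The part of dividing cells, or of the myeloid markers given above, in the control levels was not tested.

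**Figure D3:**
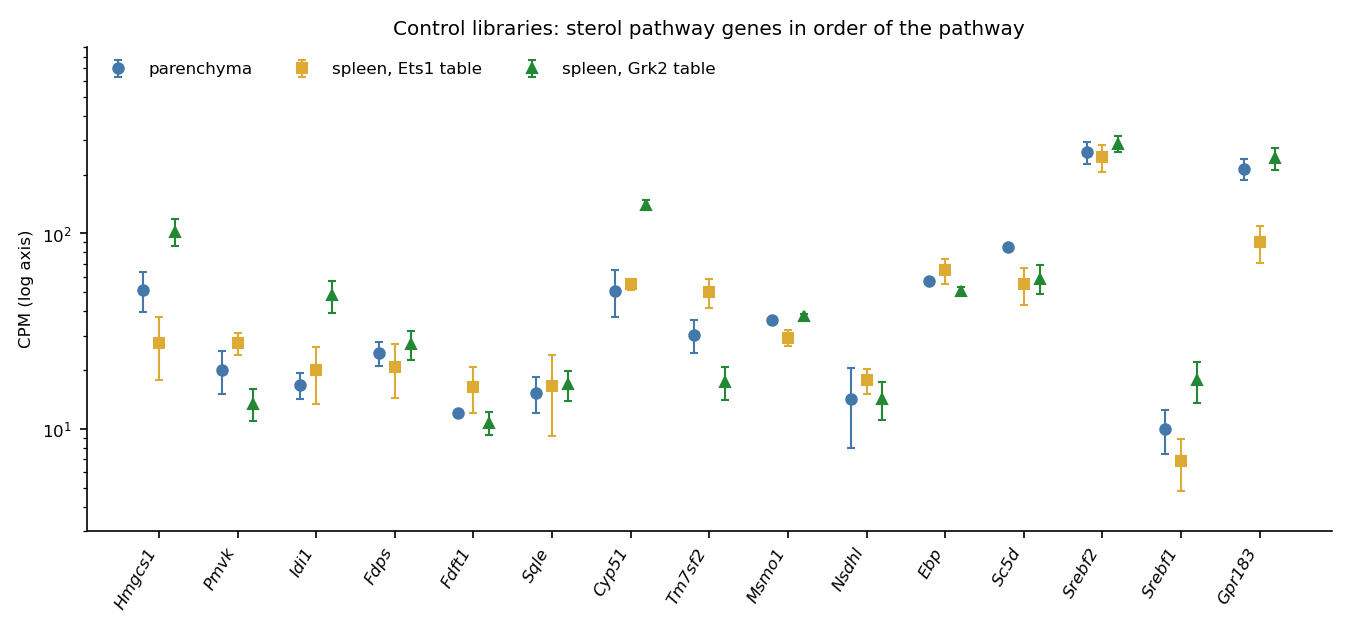
Mean and SD over 3 NT control libraries of 12 of the 14 sterol synthesis genes over the minimum, in the order of the pathway, and of *Srebf2*, *Srebf1* and *Gpr183*, in CPM (log y axis). Circles are parenchyma, squares the spleen of the Ets1 table and triangles the spleen of the Grk2 table. *Hmgcs1*, *Idi1* and *Cyp51* show triangles well above both other symbols, and some other genes show them below both. Of the 14 genes, 5 were higher in the Grk2 table than in the other spleen group and 4 lower, without overlap.

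**Figure D4:**
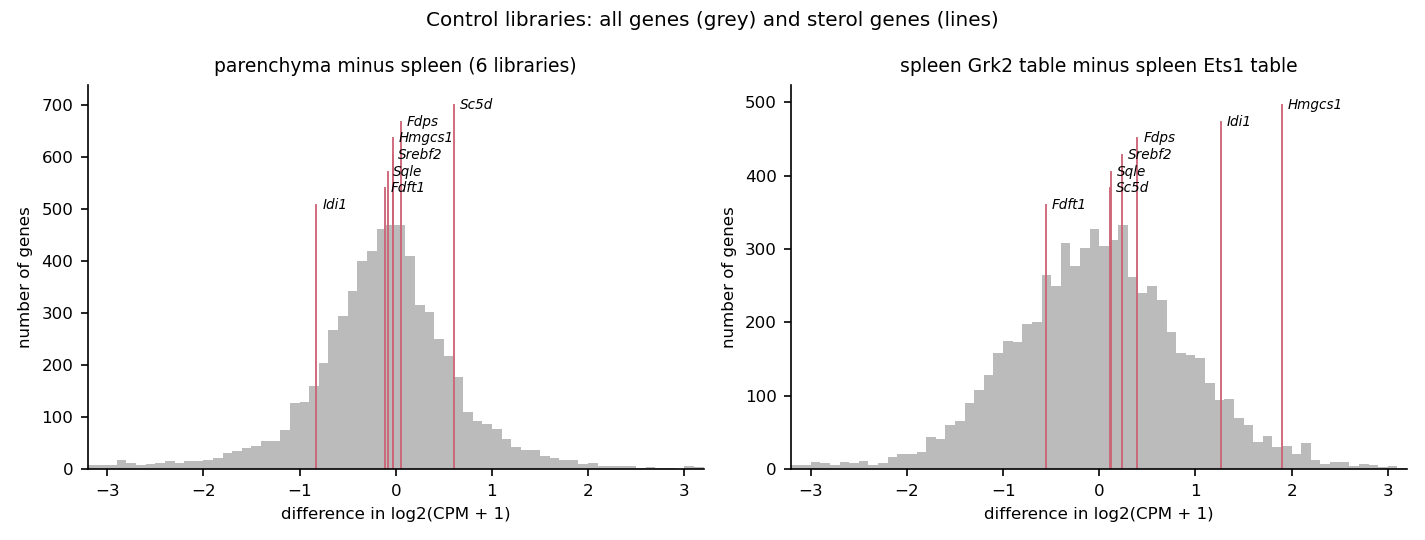
Histograms of the difference in log2(CPM + 1) between groups of control libraries over 6661 genes (grey), with 7 sterol genes as red lines; the height of a line has no meaning. In the left panel, parenchyma minus spleen, the members lie from -0.82 to 0.60, and in the right panel, between the 2 spleen groups, they run from -0.55 for *Fdft1* to 1.90 for *Hmgcs1*.

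*Gpr183* and *Ch25h* link sterols to migration, since *Ch25h* makes 25-hydroxycholesterol and *Gpr183* encodes the receptor that guides lymphocytes along oxysterols derived from it. *Ch25h* had 4 reads in the 18 libraries together. *Gpr183* was at 214.1 ± 25.6 CPM in parenchymal controls, 90.0 ± 19.6 in the spleen of the Ets1 table and 243.3 ± 32.1 in that of the Grk2 table. Its log2 difference under Ets1 KO was -0.25 ± 0.10 SE in the parenchyma and -0.30 ± 0.16 SE in the spleen, the lower of the pair in 3 of 3 pairs of each (adjusted p = 0.148 and 0.399), and under Grk2 KO it was 0.00 ± 0.09 SE. Other lists around the pathway also gave few calls. Of 11 SREBP control genes 7, 6 and 8 were tested in the parenchyma, the spleen of the Ets1 table and the Grk2 table, with *Rnf139* the 1 call. Of 11 genes for uptake and transport 8 were tested in each table, with 0 calls by limma. At an unadjusted p under 0.05 there were 1, 0 and 0 of those 8, against 16.9%, 14.1% and 10.4% of all genes tested.

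Some genes of the pathway were at or near 0 in all libraries, among them enzymes that cells making sterol need. *Acat2* had 0 reads in 25925531 and *Mvk*, *Mvd* and *Lss* had 1, 6 and 13, and a count of 0 allows up to 0.116 CPM over the 18 libraries. These genes are therefore listed at about 0, and nothing is drawn from that level about their expression.

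Within a table, over KO and control libraries together, the members varied only loosely with one another. Pearson's r of log2(CPM + 1), centred within each table over 18 libraries, ranged from -0.13 for *Idi1* and *Hmgcs1* to 0.64 for *Fdft1* and *Idi1*, with a median of 0.18 over 21 pairs of 7 members. The 5 genes outside the pathway lists most like the members' mean, of 6165 genes, were *Pdp2* (r = 0.842), *Cox17* (0.797), *Osbpl3* (0.763), *Txk* (0.762) and *Rheb* (0.758). The points share libraries and depth, and these are the highest of many values, so they are a description only.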

How the data were processed

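Bulk 3′ mRNA-seq of sorted rat TMBP cells was analysed in 18 libraries, 3 per group, with groups taken from the sample labels. Per the methods and the submitters' processing notes, the authors aligned single-end reads to Rnor_6.0 (release 102) with STAR 2.7.2b untrimmed, obtained gene counts with HTSeq-count 1.0.0 and divided them by DESeq2 size factors (poscounts). The deposited signal values are thus normalized counts within each of 3 tables. Whole reads were recovered as multiples of a library's smallest step (100% of values whole, tolerance 0.01). The values of 8 columns of human cells were not used, nor were the authors' own fold changes and p values.

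The test was limma 3.58.1 on log2(normalized count + 1), for genes averaging 10 or more over a table's 6 libraries (lmFit, eBayes with trend), replicate number as a block, two-sided, with a Benjamini-Hochberg adjusted p under 0.05 over all genes as the threshold. All log2 differences are on that scale, which understates changes of low genes. Differences between comparisons were fitted on the pairs' log2 ratios. edgeR 4.0.16 and DESeq2 1.42.0 on recovered reads were alternatives. The block rests on co-transfer of KO and control cells. The labels do not tie numbers to animals, and deviations of same-numbered libraries correlated between -0.003 and 0.175. Code was tested on simulated data. CPM are recovered reads per 1000000 reads on genes of a library, and intervals from counts cover counting error only.

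The 8 members and the pathway, marker and proliferation lists were chosen with earlier results of these data known. The rule for names took all members in every comparison, with *Srebf1*, *Cyp51*, *Gpr183* and *Ch25h* where measured, other genes of the 7 pathway lists where called, and the 5 genes most like the members' mean. Some genes of the lists count in their totals and are not reported by name here.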

Additional observations from a re-analysis of the deposited data

Results flagged for a closer look

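The effect of the knockout on proliferation genes differed between Ets1 KO and Grk2 KO in the spleen by a test of the difference itself (limma on the pairs' log2 ratios). For *Mki67* the difference was -0.92 ± 0.13 SE (adjusted p = 3.34e-05), from -0.67 under Ets1 KO and 0.25 under Grk2 KO. For *Top2a* it was -0.99 ± 0.13 SE (adjusted p = 1.02e-05), from -0.63 and 0.36. Both calls were lost without the trend of the variance on expression. No sterol gene met this criterion.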

How the results depend on the processing

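No member was called in any of the 5 comparisons under the alternatives run (14 for each knockout, 11 for each difference), except 1 for parenchyma minus spleen without replicate 2. Of 439 member values recomputed, 423 kept sign and side of the threshold. Some DESeq2 values had no adjusted p and were counted as not passing, so for those only the sign was compared. Counts of all genes called moved far more, from 3 to 367 in the parenchyma, 0 to 242 and 0 to 118 in the spleen tables, and were 200, 71 and 19 with no replicate block. The block changed no member's call, and without the trend 3, 0 and 0 genes were called, which also lost *Grk2* in its own KO. The cause of the moves was not tested, except that 2 pairs remain when a replicate is left out.

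Members' median log2 differences in the parenchyma were 0.18 with no filter, where *Insig1* enters, and 0.073 at a minimum of 50, where 3 members remain, and ran from 0.15 to 0.24 without single replicates. At a minimum of 50 the median of parenchyma minus spleen was -0.049. Without single replicates the number called there was 0 to 1, and the median of Ets1 minus Grk2 was -0.046 to 0.10. Between the spleen control groups the median was 0.32 when mitochondrial genes were left out and 0.24 to 0.41 without single replicates, which put 2 to 4 members higher in the Grk2 table and 0 to 2 parenchymal members below the spleen.

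*Fdft1* under Grk2 KO, at 0.00, turned to 0.0091 with a pseudocount of 5, 0.0013 with equal library sums and 0.032 with edgeR, and ran from -0.27 to 0.19 without single replicates. Other values that turned sign without a replicate were small. In the parenchyma *Srebf2* ran from -0.0067 to 0.068. In the spleen under Ets1 KO *Idi1* ran from -0.30 to 0.037, *Hmgcs1* from -0.13 to 0.30, *Sc5d* from -0.11 to 0.11 and *Ets1* from -0.14 to 0.0086. Under Grk2 KO *Sc5d* ran from -0.15 to 0.056, *Idi1* from -0.026 to 0.26, *Sqle* from -0.35 to 0.39 and *Insig1* from -0.37 to 0.47. For parenchyma minus spleen *Sc5d* ran from -0.050 to 0.14, and for Ets1 minus Grk2 *Srebf2* from -0.046 to 0.23. Members outside *Insig1* had 10 to 586 reads a library, and standard errors of their KO effects ran from 0.08 to 0.37 on the log2 scale.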

Other observations

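Branches that leave the sterol pathway, or share its regulators, were also measured. Of 11 genes of the prenyl branch, which attaches farnesyl and geranylgeranyl groups to proteins, 7, 8 and 6 were tested under Ets1 KO in the parenchyma, Ets1 KO in the spleen and Grk2 KO in the spleen. Limma called 0 in each, with 1, 0 and 0 at an unadjusted p under 0.05, against 16.9%, 14.1% and 10.4% of all genes tested. The median log2 differences were -0.16, -0.06 and -0.01. Of 10 fatty acid synthesis genes 4 were tested in each table, limma called 0, and 0, 0 and 1 had an unadjusted p under 0.05. Of 8 genes for LXR, efflux and esterification 3, 4 and 3 were tested, with 0 called and 0 at an unadjusted p under 0.05. Of 5 genes for oxysterol synthesis and its receptor only *Gpr183* was tested.

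In control cells, *Mylip*, a ubiquitin ligase gene that LXR switches on, was picked out after its values were seen. It was at 5.41 ± 2.54 CPM in the parenchyma, 9.14 ± 0.85 in the spleen of the Ets1 table and 29.4 ± 2.73 in that of the Grk2 table (SD, n = 3 each). Between the spleen groups 29.8% of all genes were higher without overlap in the Grk2 table and 31.7% lower. Of the 4 genes over the minimum in the list for LXR, efflux and esterification, 3 were higher and 1 lower. Nothing is drawn from *Mylip* alone.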
